A study of Mus musculus with 9 samples.

Results

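The genes described here encode the AP-1 transcription factors of the Fos and Jun families and their partner Atf3. The members are Fos, Fosb, Fosl1, Fosl2, Jun, Junb, Jund and Atf3, chosen by gene symbol. They are 8 of the 19938 mouse genes that had at least 1 probe set annotated with a single symbol. Each of the 8 had exactly 1 such probe set, so no member could be checked against another probe set.

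Messenger RNA was measured on 9 whole-transcript arrays, in 3 groups of 3. The osteosarcoma group held 3 cell lines, 1 array each, grown from tumours of adult C57BL/6 mice of genotype Osx-Cre p53fl/fl Rbfl/fl; these tumours are described as fibroblastic and p53-/- Rb-/-. Osx drives the Cre recombinase in cells of the osteoblast lineage. Lines 1 and 3 came from females and line 2 from a male, and all were harvested before confluence and below passage 8. The osteoblast group held 3 cultures of Kusa4b10, a mouse bone marrow stromal line, differentiated for 21 days with ascorbate. The pre-osteoblast group held 3 undifferentiated cultures of the same line. The Kusa4b10 groups therefore represent 1 line, while the spread of the osteosarcoma group is a spread between lines. Tumour state and line of origin cannot be told apart here, nor can differentiation and time in culture. By their labels the Kusa4b10 cultures are independent samples; where that means only separate dishes, p-values measure the spread between dishes.

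AP-1 is a dimer of basic leucine zipper proteins: a Jun protein pairs with itself or with a Fos protein, and the dimer binds the sequence TGANTCA. Fos, Fosb, Jun, Junb and Atf3 are transcribed within minutes of a growth factor or stress signal, whereas Fosl1, Fosl2 and Jund are often present for longer. In bone, loss of Fos in mice blocks osteoclast formation, excess Fos gives osteosarcoma, and Fosl1 and Fosl2 act in osteoblasts on matrix production.

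The values are log2 expression levels, so that a difference of 1 is a doubling. Differences come from limma fitted to all 19938 genes, with p-values adjusted over all of them by the Benjamini-Hochberg method, and a gene is said to have risen or fallen when its adjusted p was below 0.05. Each array enters 2 of the 3 comparisons, so the comparisons are not independent of each other. Probe sets bind with unequal strength, so levels are compared between arrays and never between genes.

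Over the whole series the array medians lay between 7.43 and 7.56. Correlations over genes were 0.982 to 0.987 between osteosarcoma lines, 0.993 to 0.998 between osteoblast cultures, 0.994 to 0.997 between pre-osteoblast cultures and 0.95 to 0.97 across groups. On the first principal component, which held 46.3% of the variance, osteoblast culture 2 stood at 39.8, against 51.4 and 51.5 for the other 2 osteoblast cultures. Rb1, floxed in the tumour model, had levels of 9.26, 9.67 and 9.85 in the osteosarcoma lines, 10.63 to 10.65 in osteoblasts and 9.17 to 9.28 in pre-osteoblasts. The sources used here do not say which of its exons the probes or the deletion cover, so the label of the deletion is not tested by it. Endothelial markers gave no call among 6 genes in any comparison by limma. Of all genes, 27.4% were called in the lines against osteoblasts, 23.5% in the lines against pre-osteoblasts and 26.1% in osteoblasts against pre-osteoblasts. Between the lines and pre-osteoblasts, 1 of the 6 had an unadjusted limma p below 0.05. Without osteosarcoma line 2, 1 of the 6 was called in each comparison of the lines. Tek, on this list, had levels of 9.02, 6.28 and 7.15 in osteosarcoma lines 1, 2 and 3. Its levels on the Kusa4b10 arrays were 6.06 to 6.30, below 6.44, the lower quartile of gene means.

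Of the 8 members, 6 differed between the groups by limma's F-test (all but Junb and Jund), where 38.4% of all genes did. Between osteosarcoma lines and osteoblasts, 2 members rose (Jun and Fosl2) and 2 fell (Atf3 and Fos). In that comparison 27.4% of all genes were called, 14.7% higher and 12.7% lower. Between osteosarcoma lines and pre-osteoblasts, 1 member rose (Jun) and 2 fell (Fosl1 and Fosb), where 23.5% of all genes were called, 9.96% higher and 13.5% lower. Between osteoblasts and pre-osteoblasts, 2 members rose (Atf3 and Fos) and 2 fell (Fosl2 and Fosl1), where 26.1% of all genes were called, 10.3% higher and 15.8% lower. With so few members, these counts describe the 8 genes and do not set them apart from the rest. With the arrays centred on their medians, the osteosarcoma to osteoblast calls over all genes were 3682 higher and 2028 lower, against 2936 higher and 2523 lower without centring. For osteosarcoma lines against pre-osteoblasts they were 2419 higher and 2262 lower with centring and 2561 higher and 2427 lower with quantile normalization, against 1986 higher and 2700 lower in the values as deposited. Without pre-osteoblast culture 3 that comparison gave 1225 higher and 2139 lower.

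Groups shared no common range of levels for 5 of 8 members between osteosarcoma lines and osteoblasts, where this held for 38.7% of all genes. The same was true of 3 members between osteosarcoma lines and pre-osteoblasts (35.6% of all genes) and of 4 members between osteoblasts and pre-osteoblasts (44.2% of all genes). The median absolute difference of the members was 0.37, against 0.15 over all genes, in the first of these comparisons. It was 0.14 for the members and 0.14 for all genes in the second, and 0.36 against 0.14 in the third. Most members lie above the median gene mean of 7.97. With only genes above that median fitted, 4689, 4022 and 4602 genes were called in these comparisons, against 5459, 4686 and 5202 of all genes. Most calls thus fell among the brighter genes. The shares and differences over all genes, here and below, are not matched to the level of the genes beside them.

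**Figure D1:**
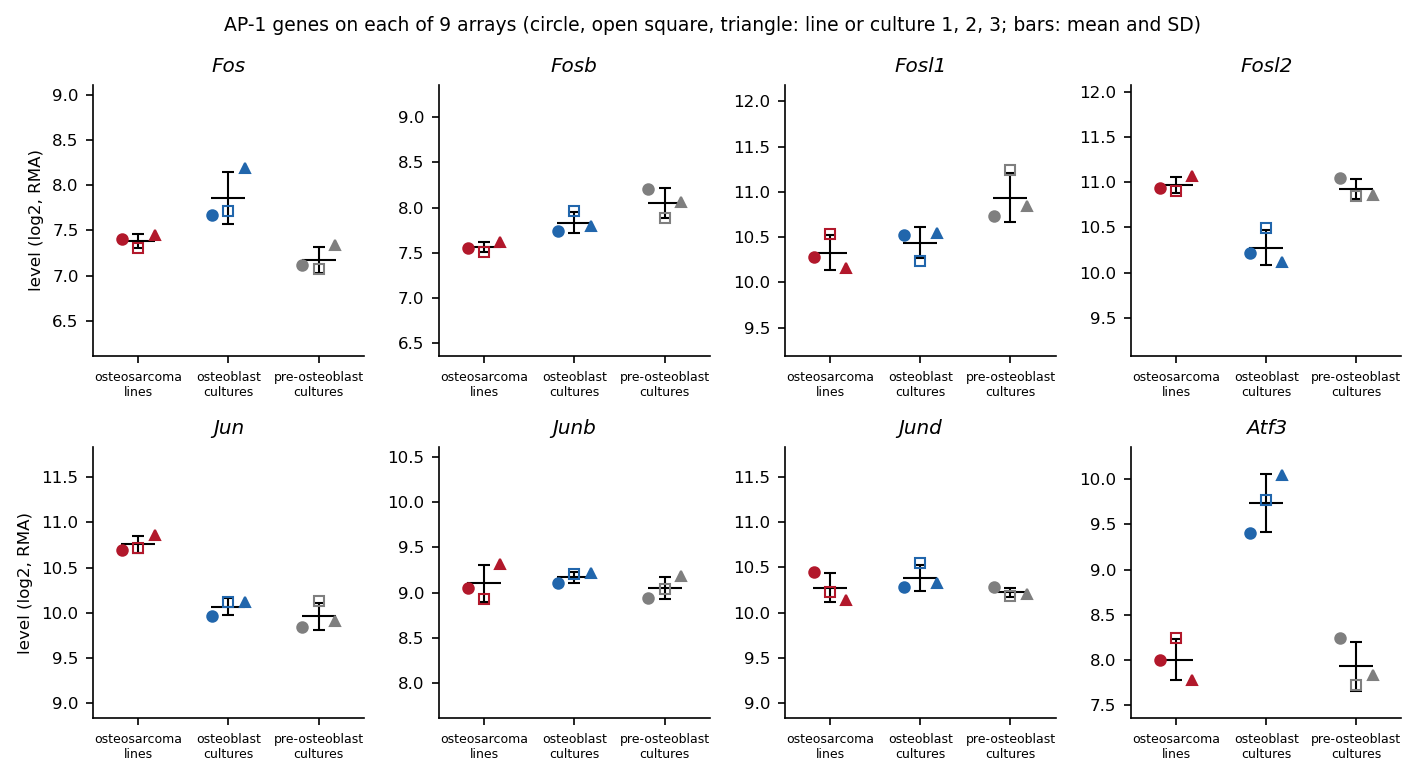
Log2 expression level (vertical axis) of each of the 8 genes in the 9 arrays, with osteosarcoma lines at the left, osteoblast cultures in the middle and pre-osteoblast cultures at the right of each panel; circle, square and triangle are line or culture 1, 2 and 3, and bars are the group mean and SD. Atf3 stands at 9.40 to 10.04 in the osteoblast cultures, above all 6 other arrays, and Jun at 10.69 to 10.86 in the osteosarcoma lines, above all 6 Kusa4b10 arrays.

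Atf3, a stress-induced factor that pairs with Jun proteins and often represses its targets, moved most among the members. Its level was 8.00, 8.24 and 7.78 in osteosarcoma lines 1, 2 and 3, 9.40, 9.77 and 10.04 in osteoblast cultures 1, 2 and 3, and 8.24, 7.72 and 7.83 in pre-osteoblast cultures 1, 2 and 3. Every osteoblast culture lay above every other array, while the lines and the pre-osteoblasts overlapped. Group means were 8.01 ± 0.23 in osteosarcoma lines, 9.74 ± 0.32 in osteoblasts and 7.93 ± 0.27 in pre-osteoblasts (SD, n = 3 each). Atf3 was thus 3.31-fold lower in osteosarcoma lines than in osteoblasts (log2 difference -1.73 ± 0.20 SE, limma adjusted p = 0.000535). It was 3.49-fold higher in osteoblast cultures than in pre-osteoblast cultures (1.80 ± 0.20, limma adjusted p = 0.000465). Ranked by absolute difference among all 19938 genes, Atf3 came 541st in the first comparison and 423rd in the second. Between osteosarcoma lines and pre-osteoblasts the difference was 0.08 with a 95% interval of -0.38 to 0.53 (limma adjusted p = 0.843).

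The sequence upstream of the Atf3 start is shown because this gene moved most. It covers chr1:191183334-191183583 on the minus strand, the 250 bases before the RefSeq start in GRCm38.p6, 5′ to 3′. Capitals mark matches to the motifs searched.
Atf3: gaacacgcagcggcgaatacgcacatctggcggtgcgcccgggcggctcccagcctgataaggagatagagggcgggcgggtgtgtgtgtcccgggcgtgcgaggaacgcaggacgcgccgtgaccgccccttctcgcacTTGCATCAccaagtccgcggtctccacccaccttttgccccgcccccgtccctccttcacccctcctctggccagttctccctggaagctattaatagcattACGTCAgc
The first match, TTGCATCA at 110 to 103 bases before the start, is the C/EBP-ATF response element TGATGNAA read on the other strand; ATF4 and C/EBP dimers are known to bind such elements in amino acid and secretory stress. The second, ACGTCA at 8 to 3 bases before the start, is the cyclic AMP response element core TGACGT on the other strand. Of 32851 promoter windows of this length, 3.45% held TGATGNAA and 6.47% held TGACGT on either strand. The motifs were picked with the sequences in view, and a match says nothing of binding.

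Atf3 was read beside 14 other genes of the integrated stress and unfolded protein responses, the pathways in which ATF4 induces it. In osteosarcoma lines against osteoblasts 11 of the 14 fell and 0 rose, with a median difference of -1.02 (all genes -0.02). In osteoblasts against pre-osteoblasts 9 rose and 0 fell, with a median of 0.65 (all genes 0.00). Between osteosarcoma lines and pre-osteoblasts 1 rose and 3 fell. In that order 78.6%, 64.3% and 28.6% of the 14 were called, against 27.4%, 26.1% and 23.5% of all genes. Omitting each array in turn left 10 to 12 calls, 8 to 10 calls and 3 to 5 calls in these comparisons.

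Ddit3, the pro-apoptotic stress factor CHOP, had levels of 9.90, 9.32 and 9.84 in the osteosarcoma lines, 12.20, 12.01 and 12.46 in osteoblasts and 10.26, 9.33 and 9.68 in pre-osteoblasts. As with Atf3, its 3 osteoblast levels lay above all other arrays. It was 5.81-fold lower in osteosarcoma lines than in osteoblasts (-2.54 ± 0.25 SE, limma adjusted p = 0.000272) and 5.52-fold higher in osteoblast cultures than in pre-osteoblast cultures (2.47 ± 0.25, limma adjusted p = 0.000324). Ppp1r15a, which restarts translation after stress, fell by 1.79 ± 0.20 in osteosarcoma lines against osteoblasts (limma adjusted p = 0.000475). Vldlr, a lipoprotein receptor, ran otherwise. It was higher both in osteosarcoma lines than in pre-osteoblasts (2.25 ± 0.49, limma adjusted p = 0.0125) and in osteoblasts than in pre-osteoblasts (2.54 ± 0.49, limma adjusted p = 0.00618). Sesn2, a stress-induced inhibitor of mTORC1 signalling, and Atf6, a sensor of unfolded proteins, fell by 1.16 ± 0.23 and by 0.59 ± 0.13 in osteosarcoma lines against pre-osteoblasts; without pre-osteoblast culture 2 the Atf6 call was lost (limma adjusted p = 0.0505). Chac1, a glutathione-degrading enzyme, differed by 0.71 ± 0.26 in osteoblasts against pre-osteoblasts and did not pass (limma adjusted p = 0.0859). It passed without pre-osteoblast culture 1 (0.96, limma adjusted p = 0.0255) or osteosarcoma line 2 (limma adjusted p = 0.0428), and with array weights (0.0443).

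**Figure D2:**
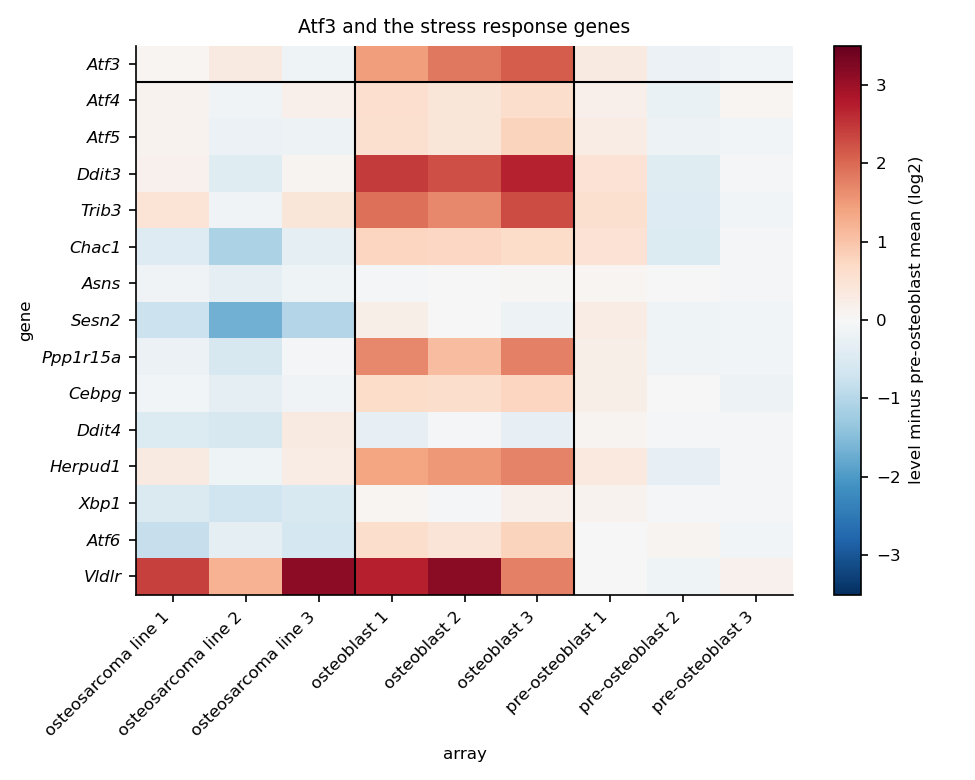
Heat map of Atf3 and the 14 stress response genes (rows) in the 9 arrays (columns, osteosarcoma lines first, then osteoblasts, then pre-osteoblasts); colour is the log2 level minus that gene's pre-osteoblast mean. Atf3 and Ddit3 are above their pre-osteoblast means in all 3 osteoblast cultures, and Vldlr is high in both the osteosarcoma lines and the osteoblasts.

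The osteoblast cultures also differed from the other arrays in markers of other cell states. For the marker counts, 26.1% of all genes were called in osteoblasts against pre-osteoblasts. In the lines 27.4% of all genes were called against osteoblasts and 23.5% against pre-osteoblasts. All 8 cycling markers measured fell in osteoblasts against pre-osteoblasts (median -2.12) and rose in osteosarcoma lines against osteoblasts (median 2.36). None of the 8 was called by limma between osteosarcoma lines and pre-osteoblasts, and 0 had an unadjusted p below 0.05. Their summed level was 14.36 to 14.79 in the lines, 11.83 to 12.96 in osteoblasts and 13.93 to 14.77 in pre-osteoblasts. Of 8 adipocyte markers, 6 rose in osteoblasts against pre-osteoblasts (median 2.98) and 7 fell in osteosarcoma lines against osteoblasts (median -3.10). Their summed level was 10.90 to 11.61 in the lines, 13.96 to 14.74 in osteoblasts and 12.05 to 12.43 in pre-osteoblasts. Between osteosarcoma lines and pre-osteoblasts only Pparg fell, and 2 markers did without pre-osteoblast culture 2. The fat hormone Adipoq averaged 6.25 in osteosarcoma lines and 12.35 in osteoblasts (limma adjusted p = 0.000149).

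Of 11 osteoblast markers, 7 rose in osteoblasts against pre-osteoblasts (median 1.66) and 6 fell in osteosarcoma lines against osteoblasts (median -1.40). Between osteosarcoma lines and pre-osteoblasts 1 rose (Alpl, adjusted p = 0.0468 by limma) and 1 fell (Tnfrsf11b). The rise of Alpl was lost on leaving out any single array other than osteosarcoma line 1, with array weights and with only the compared groups fitted (limma adjusted p up to 0.145). Without osteosarcoma line 3 it was 1.56, against 2.37 with all arrays. The summed level of the 11 markers was 14.21 to 14.82 in the lines, 15.16 to 15.86 in osteoblasts and 14.54 to 14.71 in pre-osteoblasts. Ibsp, bone sialoprotein, averaged 7.02 in osteosarcoma lines, 13.20 in osteoblasts and 6.23 in pre-osteoblasts (limma adjusted p = 8.58e-05 for the lines against osteoblasts and 4.61e-05 for osteoblasts against pre-osteoblasts). No fold is given for Ibsp or Adipoq, because their lowest group means lie below 6.44, the lower quartile of gene means. Of 9 haematopoietic and osteoclast markers, 2 rose in osteoblasts against pre-osteoblasts, the protease Ctsk by 1.80 and the phosphatase Acp5 by 0.35. The Acp5 call was lost without osteoblast culture 1 or 2 (limma adjusted p = 0.13 and 0.109) or pre-osteoblast culture 1, 2 or 3 (0.11, 0.0538 and 0.11). In osteosarcoma lines 1 of the 9 rose and 1 fell against osteoblasts, and 1 rose against pre-osteoblasts. The osteoblast group stood apart in these marker levels as it did in Atf3, Fos and Fosl2. Within that group the highest culture varied. Atf3 and Fos were highest in culture 3. So was the haematopoietic and osteoclast sum, at 12.21, 11.68 and 12.28 in cultures 1, 2 and 3. The cycling and osteoblast sums and Fosl2 were highest in culture 2 and the adipocyte sum in culture 1. The part of the markers in the Atf3, Fos and Fosl2 results was not tested. In a bulk culture, fewer cells of a type and less RNA per cell cannot be told apart.

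Jun, the strongest activator of its family and a partner of all Fos proteins, was high in the tumour lines. Its level was 10.69, 10.72 and 10.86 in osteosarcoma lines 1, 2 and 3, 9.96, 10.12 and 10.12 in osteoblasts, and 9.84, 10.13 and 9.91 in pre-osteoblasts. All 3 lines lay above all 6 Kusa4b10 arrays, which overlapped among themselves. Means were 10.76 ± 0.092 in osteosarcoma lines, 10.07 ± 0.091 in osteoblasts and 9.96 ± 0.15 in pre-osteoblasts (SD, n = 3 each). Jun was 1.61-fold higher in osteosarcoma lines than in osteoblasts (0.69 ± 0.09 SE, limma adjusted p = 0.000969) and 1.74-fold higher than in pre-osteoblasts (0.80 ± 0.09, limma adjusted p = 0.000641). With each array left out in turn, these differences were 0.64 to 0.72 and 0.74 to 0.88. Between osteoblasts and pre-osteoblasts the difference was 0.11 with a 95% interval of -0.10 to 0.32. The part of cycling, adipocyte and osteoblast markers in the Jun differences was not tested.

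The Jun upstream sequence is shown because Jun is the only member called in both comparisons of the tumour lines. It covers chr4:95052223-95052472 on the minus strand of GRCm38.p6, 5′ to 3′.
Jun: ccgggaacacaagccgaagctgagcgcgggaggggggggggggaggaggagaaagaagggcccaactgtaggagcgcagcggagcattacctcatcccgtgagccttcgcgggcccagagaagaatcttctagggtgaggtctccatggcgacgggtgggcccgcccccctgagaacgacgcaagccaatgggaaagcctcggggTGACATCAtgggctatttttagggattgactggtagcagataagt
The capitals mark TGACATCA, at 45 to 38 bases before the RefSeq start, the variant AP-1 site through which Jun is known to regulate its own transcription. On either strand, 2.93% of the 32851 windows held these letters.

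Junb, which often opposes Jun in the control of growth, varied little. It had levels of 9.05, 8.93 and 9.32 in the lines, 9.10, 9.20 and 9.21 in osteoblasts and 8.94, 9.04 and 9.18 in pre-osteoblasts, and all groups overlapped. Its differences were -0.07 in osteosarcoma lines against osteoblasts (95% interval -0.32 to 0.17), 0.05 against pre-osteoblasts (-0.20 to 0.29) and 0.12 in osteoblasts against pre-osteoblasts (-0.13 to 0.36). The intervals exclude a change of the size seen for Jun in the lines. Jund, the family member that is usually constitutive, had levels of 10.45, 10.23 and 10.14 in the lines, 10.28, 10.55 and 10.33 in osteoblasts and 10.28, 10.18 and 10.21 in pre-osteoblasts. Its groups overlapped too, with differences of -0.11 (-0.34 to 0.11), 0.05 (-0.18 to 0.28) and 0.16 (-0.07 to 0.39) in the same order. Neither gene passed any test by limma, with F-test adjusted p of 0.676 for Junb and 0.426 for Jund.

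Fos, the best-known immediate-early gene and the founding partner of Jun, was highest in the osteoblast cultures. Its level was 7.41, 7.30 and 7.45 in the osteosarcoma lines, 7.67, 7.71 and 8.19 in osteoblasts and 7.12, 7.07 and 7.34 in pre-osteoblasts. All osteoblast cultures lay above all other arrays, with culture 3 farthest, and the lines overlapped the pre-osteoblasts. Means were 7.38 ± 0.078 in osteosarcoma lines, 7.86 ± 0.29 in osteoblasts and 7.18 ± 0.14 in pre-osteoblasts (SD, n = 3 each). Fos was 1.61-fold higher in osteoblast cultures than in pre-osteoblast cultures (0.68 ± 0.14 SE, limma adjusted p = 0.00834), and 0.52 to 0.78 higher on the log2 scale with any 1 array left out. It was 1.39-fold lower in osteosarcoma lines than in osteoblasts (-0.48 ± 0.14, limma adjusted p = 0.0379). Between the lines and pre-osteoblasts the difference was 0.21 (95% interval -0.12 to 0.53).

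The fall of Fos in the lines against osteoblasts rested on a narrow margin. Without osteoblast culture 3 it was -0.31 (limma adjusted p = 0.061). The adjusted p was 0.0804, 0.0926 and 0.0593 without osteosarcoma line 1, 2 and 3, and 0.0566 and 0.0533 without pre-osteoblast culture 1 and 2. It was 0.077 with only the compared groups fitted. Fos and Fosb also had means over all arrays below 7.97, the median gene mean. Background signal compresses differences of dim probe sets, so these folds may understate the change, which was not tested.

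The Fos upstream sequence covers chr12:85473640-85473889 on the plus strand of GRCm38.p6, 5′ to 3′, and is shown because Fos and Atf3 were both highest in osteoblasts.
Fos: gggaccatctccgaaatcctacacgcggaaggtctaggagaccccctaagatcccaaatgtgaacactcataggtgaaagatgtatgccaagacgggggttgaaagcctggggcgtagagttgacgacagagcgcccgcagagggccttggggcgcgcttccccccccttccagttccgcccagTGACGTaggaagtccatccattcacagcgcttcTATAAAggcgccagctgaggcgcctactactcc
Capitals mark the cyclic AMP response element core TGACGT at 66 to 61 bases before the RefSeq start, and TATAAA at 33 to 28 bases before it. TATAAA was found in 12.4% of the 32851 windows on either strand, and TGACGT in 6.47%. Both Fos and Atf3 held the TGACGT core within the 250 bases, on opposite strands. The motifs were picked with these sequences in view, so the shared match is no test of a shared control. RefSeq windows were matched for 7 of the 8 members. None of the 7 held the AP-1 site TGANTCA, which 6.75% of windows did, and those of Fosb, Fosl2, Junb and Jund held none of the 5 motifs searched. No 2 matches overlapped.

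Fosb, a close relative of Fos that is also induced at once by stimuli, was lowest in the osteosarcoma lines. Its level was 7.55, 7.51 and 7.62 in the osteosarcoma lines, 7.74, 7.96 and 7.80 in osteoblasts and 8.21, 7.88 and 8.06 in pre-osteoblasts. The 3 lines lay below all 6 Kusa4b10 arrays, and the osteoblasts overlapped the pre-osteoblasts. Fosb was 1.40-fold lower in osteosarcoma lines than in pre-osteoblasts (-0.49 ± 0.09 SE, limma adjusted p = 0.0065). The differences of -0.27 ± 0.09 in osteosarcoma lines against osteoblasts (limma adjusted p = 0.0624) and of -0.22 ± 0.09 in osteoblasts against pre-osteoblasts (limma adjusted p = 0.136) did not pass. The first of these passed without pre-osteoblast culture 1 or 2 (limma adjusted p = 0.0423 and 0.0382) and with only the compared groups fitted (0.0486). The second passed without pre-osteoblast culture 2 (limma adjusted p = 0.0487).

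Fosl1, also called Fra-1, lacks the activation domain of Fos and is a known target of AP-1. It had levels of 10.28, 10.54 and 10.16 in the osteosarcoma lines, 10.52, 10.24 and 10.55 in osteoblasts and 10.73, 11.24 and 10.84 in pre-osteoblasts. Every pre-osteoblast culture lay above every other array, and the lines overlapped the osteoblasts. Fosl1 was 1.53-fold lower in osteosarcoma lines than in pre-osteoblasts (-0.61 ± 0.16 SE, limma adjusted p = 0.0244) and 1.41-fold lower in osteoblasts than in pre-osteoblasts (-0.50 ± 0.16, limma adjusted p = 0.0484). In osteosarcoma lines against osteoblasts the difference was -0.11 (95% interval -0.47 to 0.25).

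Both calls on Fosl1 depended on single arrays. The first was lost without osteosarcoma line 1 or 3 (limma adjusted p = 0.0681 and 0.068), without pre-osteoblast culture 2 or 3 (0.0621 and 0.0523) and with only the compared groups fitted (0.0559). The second was lost without osteoblast culture 1, 2 or 3 (limma adjusted p = 0.0891, 0.147 and 0.0802), without osteosarcoma line 1 (0.0679) and without pre-osteoblast culture 2 or 3 (0.134 and 0.0826).

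Fosl2, or Fra-2, which promotes collagen and osteocalcin production in osteoblasts, was low in the differentiated cultures. Its level was 10.93, 10.90 and 11.07 in the osteosarcoma lines, 10.22, 10.49 and 10.12 in osteoblasts and 11.05, 10.85 and 10.86 in pre-osteoblasts. All osteoblast cultures lay below all other arrays, and the lines overlapped the pre-osteoblasts. Means were 10.97 ± 0.087 in osteosarcoma lines, 10.28 ± 0.19 in osteoblasts and 10.92 ± 0.11 in pre-osteoblasts (SD, n = 3 each). Fosl2 was 1.61-fold higher in osteosarcoma lines than in osteoblasts (0.69 ± 0.11 SE, limma adjusted p = 0.00192) and 1.56-fold lower in osteoblasts than in pre-osteoblasts (-0.64 ± 0.11, limma adjusted p = 0.00292). Leaving out any 1 array gave 0.61 to 0.80 and -0.75 to -0.56. The cycling markers were also low in the osteoblasts, with summed levels of 11.98, 12.96 and 11.83 in cultures 1, 2 and 3. Both they and Fosl2 were highest in osteoblast culture 2. The other groups ran otherwise. Line 2 had the highest cycling sum of the lines (14.79) and the lowest Fosl2 level (10.90). Pre-osteoblast culture 1 had the lowest cycling sum of its group (13.93) and the highest Fosl2 level (11.05). A link between the 2 was not tested. In osteosarcoma lines against pre-osteoblasts the Fosl2 difference was 0.05 (95% interval -0.19 to 0.29).

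**Figure D3:**
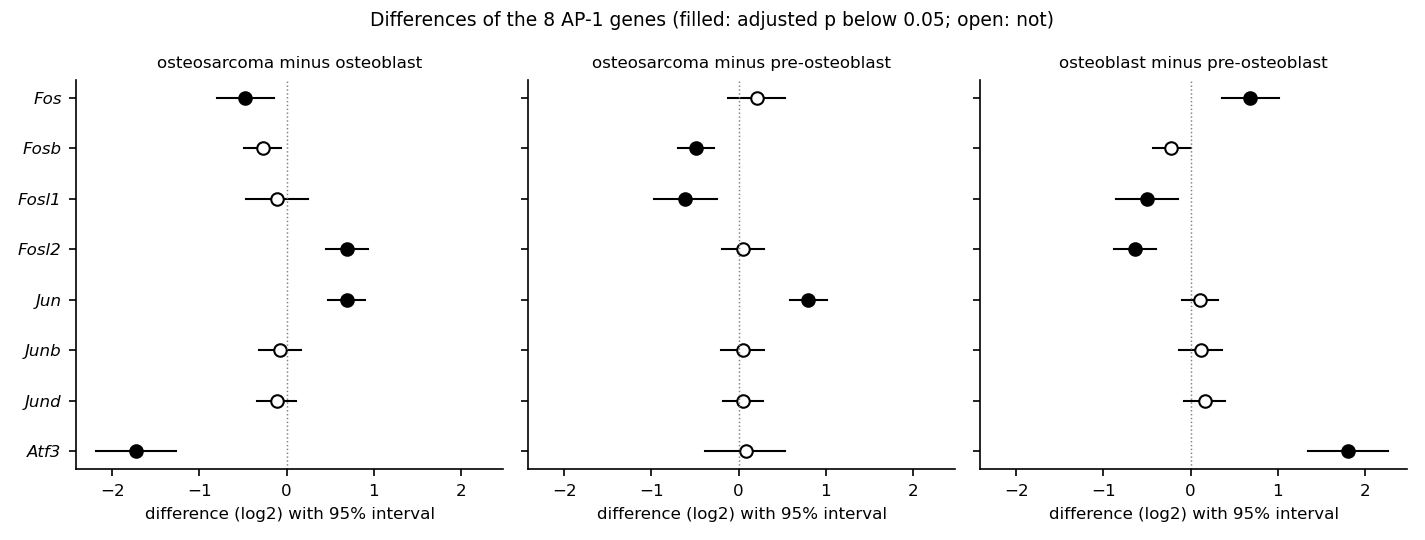
Log2 differences (horizontal axis) with 95% confidence intervals from limma for the 8 genes in the 3 comparisons: osteosarcoma lines minus osteoblasts, osteosarcoma lines minus pre-osteoblasts, and osteoblasts minus pre-osteoblasts. Jun is above 0 in both comparisons of the lines, Atf3 lies at -1.73 and 1.80 in the comparisons with osteoblasts, and the intervals of Junb and Jund cross 0 in all 3.

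Among the osteosarcoma lines, 4 of the 8 members differed by more than the typical gene and 4 by less. The gap between the highest and the lowest line was 0.46 for Atf3, 0.39 for Junb, 0.38 for Fosl1, 0.32 for Jund, 0.17 for Jun, 0.16 for Fosl2, 0.15 for Fos and 0.11 for Fosb. The median gap over all genes was 0.22, and the members stood between the 22.9th percentile (Fosb) and the 79.6th (Atf3). Line 3 was highest for Fos, Fosb, Fosl2, Jun and Junb, line 2 for Fosl1 and Atf3, and line 1 for Jund. With 1 array a line, these gaps hold both line and array differences. Over all 9 arrays the range was 2.32 for Atf3, and 0.39 for Junb, which was the smallest among the members.

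For each of the 6 members that differed between groups, the genes nearest in pattern were taken over the 9 arrays. Nearness was the root mean square difference of the mean-centred log2 levels. Only other genes that also differed between groups by the F-test, and had no clone-like name, were searched. Those nearest to Atf3 were the bone morphogenetic protein gene Bmp8a (0.234), Fnip2 (0.236) and Spata5 (0.246), against a root mean square of 0.864 for Atf3 about its own mean. Nearest to Jun were the mitochondrial ribosomal protein gene Mrps21 (0.094), Tram1l1 (0.096) and the ATP synthase subunit gene Atp5o (0.102), against 0.366. Tram1l1 levels, 5.13 to 6.02, all lay below 6.44, the lower quartile of gene means. Nearest to Fosl2 were the actin cross-linker Flna (0.059), the anion exchanger Slc4a2 (0.059) and the basement membrane proteoglycan Hspg2 (0.076), against 0.333. Nearest to Fos were Brwd1 (0.107) and the endoplasmic reticulum proteins Derl2 (0.110) and Serp1 (0.113), against 0.326. For Fosl1 they were the decapping factor Dcp1a (0.084), the kinase Gsk3a (0.097) and the translation repressor Eif4ebp2 (0.102), against 0.319. For Fosb they were Ppp4r1l-ps (0.056), Rbm42 (0.066) and Kif7 (0.070), against 0.223. These likenesses follow from 3 group levels as much as from single arrays, and are given as a description.

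Other immediate-early genes, transcribed by the same serum and stress signals as Fos and Jun, changed in both directions. Of 25, 11 rose and 5 fell in osteoblasts against pre-osteoblasts, with a median difference of 0.32. In osteosarcoma lines against osteoblasts 5 rose and 7 fell (median 0.00), and against pre-osteoblasts 8 rose and 4 fell (median 0.15). The last count was 4 and 3 without pre-osteoblast culture 3. With all arrays 64%, 48% and 48% of the 25 were called in these comparisons, against 26.1%, 27.4% and 23.5% of all genes. Klf4, a zinc finger factor, was 6.06-fold higher in osteoblast cultures than in pre-osteoblast cultures (2.60 ± 0.29 SE, limma adjusted p = 0.000506). The matrix-associated protein gene Ccn2 was 7.12-fold higher in osteosarcoma lines than in pre-osteoblasts (2.83 ± 0.22) and 5.79-fold higher in osteoblast cultures than in pre-osteoblast cultures (2.53 ± 0.22). Nr4a1, an orphan nuclear receptor, fell in osteosarcoma lines against both osteoblasts (-1.85 ± 0.12) and pre-osteoblasts (-0.91 ± 0.12). Myc rose by 1.14 ± 0.14 in osteosarcoma lines against pre-osteoblasts (limma adjusted p = 0.000934). Egr1, which is induced beside Fos by the serum response factor, differed by 0.63 ± 0.30 in osteoblasts against pre-osteoblasts and did not pass (limma adjusted p = 0.175). In osteosarcoma lines against osteoblasts Egr1 fell by 1.00 ± 0.30 (limma adjusted p = 0.0384), though the levels of these groups overlapped.

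The signalling genes upstream of AP-1 were counted in 2 lists. Of 20 kinases and ternary complex factors measured, 6 rose and 0 fell in osteosarcoma lines against osteoblasts. In the lines against pre-osteoblasts 3 rose and 3 fell, and in osteoblasts against pre-osteoblasts 2 rose and 6 fell. In that order 30%, 30% and 40% of the 20 were called, against 27.4%, 23.5% and 26.1% of all genes. The count of 6 became 3 without osteoblast culture 1, osteoblast culture 2 or pre-osteoblast culture 3, and 2 without osteoblast culture 3 or with only the compared groups fitted. Elk3, a ternary complex factor that represses Fos until it is phosphorylated, was 2.28-fold lower in osteoblasts than in pre-osteoblasts (-1.19 ± 0.08 SE, limma adjusted p = 4.37e-05) and 1.83-fold lower in osteosarcoma lines than in pre-osteoblasts (-0.87 ± 0.08, limma adjusted p = 0.000197). Map3k5, a stress kinase above JNK and p38, was 3.11-fold higher in osteoblast cultures than in pre-osteoblast cultures (1.64 ± 0.30). Map2k6, a p38 activator, was 2.27-fold lower in the same comparison (-1.18 ± 0.18).

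Of 16 MAP kinase phosphatases and feedback inhibitors, which switch the pathway off, 6 rose and 3 fell in osteoblasts against pre-osteoblasts. In osteosarcoma lines 2 rose and 4 fell against osteoblasts, and 4 rose and 2 fell against pre-osteoblasts. In that order 56.2%, 37.5% and 37.5% of the 16 were called, against 26.1%, 27.4% and 23.5% of all genes. Spry1, an inhibitor of receptor tyrosine kinase signalling, had levels of 9.21, 9.27 and 9.19 in the lines, 12.03, 11.88 and 12.28 in osteoblasts and 7.78, 7.48 and 7.48 in pre-osteoblasts. Its 3 groups did not overlap, with the lines in between. Spry1 was 22.4-fold higher in osteoblast cultures than in pre-osteoblast cultures (4.49 ± 0.12 SE, limma adjusted p = 1.5e-06) and 7.17-fold lower in osteosarcoma lines than in osteoblasts (limma adjusted p = 5.58e-06). Dusp5, a nuclear ERK phosphatase, fell by 1.17 ± 0.13 in osteoblasts and by 0.90 ± 0.13 in osteosarcoma lines, each against pre-osteoblasts. Dusp1, which inactivates JNK and p38 and is also on the immediate-early list, rose by 1.01 ± 0.21 in osteosarcoma lines against pre-osteoblasts.

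Of 19 related bZIP factors measured, 3 rose and 6 fell in osteosarcoma lines against osteoblasts. In the lines against pre-osteoblasts 4 rose and 1 fell, and in osteoblasts against pre-osteoblasts 4 rose and 0 fell. In that order 47.4%, 26.3% and 21.1% of the 19 were called, against 27.4%, 23.5% and 26.1% of all genes. Leaving out 1 array lowered the count of 5 to 1 to 3 calls for osteosarcoma line 1 (2), osteosarcoma line 3 (3), osteoblast culture 1 (3), and pre-osteoblast culture 1 (1), 2 (2) or 3 (1). The count of 4 in osteoblasts against pre-osteoblasts became 2 without osteoblast culture 1, osteoblast culture 3 or pre-osteoblast culture 3. Crem, a cyclic AMP-responsive factor, was 1.88-fold higher in osteosarcoma lines than in pre-osteoblasts (0.91 ± 0.07 SE, limma adjusted p = 0.000114). Mafg, a small Maf protein, was 1.94-fold higher in osteoblast cultures than in pre-osteoblast cultures (0.96 ± 0.12, limma adjusted p = 0.000948) and fell by 0.77 ± 0.12 in osteosarcoma lines against osteoblasts.

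Of 18 known AP-1 target genes measured, 4 rose and 4 fell in osteosarcoma lines against osteoblasts (median -0.07). In the lines against pre-osteoblasts 3 rose and 2 fell (median -0.08). In osteoblasts against pre-osteoblasts 4 rose and 3 fell (median -0.05). In that order 44.4%, 27.8% and 38.9% of the 18 were called, against 27.4%, 23.5% and 26.1% of all genes. The count of 5 against pre-osteoblasts was 3 without osteosarcoma line 1, 8 without line 3, 1 without pre-osteoblast culture 1, and 2 without pre-osteoblast culture 2 or 3. Plau, the urokinase that activates plasmin, had levels of 11.24, 10.02 and 11.59 in the lines, 8.30, 8.64 and 8.41 in osteoblasts and 9.51, 9.58 and 9.51 in pre-osteoblasts. The lines lay above all Kusa4b10 arrays, as they did for Jun. Ezr, on the same list, went the other way. Its levels were 9.51, 10.31 and 9.09 in the lines, below all Kusa4b10 arrays (10.54 to 10.93). Ezr fell by 1.19 ± 0.26 SE in the lines against osteoblasts (limma adjusted p = 0.0104). Against pre-osteoblasts it fell by 1.04 ± 0.26 (limma adjusted p = 0.0224). Plau was 5.65-fold higher in osteosarcoma lines than in osteoblasts (2.50 ± 0.34 SE, limma adjusted p = 0.00116) and 2.67-fold higher than in pre-osteoblasts (1.42 ± 0.34, limma adjusted p = 0.019). The second call was lost without osteosarcoma line 1 (limma adjusted p = 0.0622), without pre-osteoblast culture 1, 2 or 3 (0.0594, 0.0516 and 0.0605) and with only the compared groups fitted (0.0613).

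Mmp13, the collagenase of bone and a classical target of Fos and Jun, varied widely among the lines, at 9.33, 7.72 and 12.91 in lines 1, 2 and 3. Its levels were 14.00, 13.12 and 13.93 in osteoblasts and 12.61, 10.95 and 11.69 in pre-osteoblasts. In the lines it differed from the osteoblasts by -3.70 ± 1.14 on the log2 scale (limma adjusted p = 0.0439), and the highest and lowest line were farther apart than for any member. The call was lost without osteosarcoma line 1 or 2 (limma adjusted p = 0.122 and 0.0931), without osteoblast culture 1, 2 or 3 (0.123, 0.0762 and 0.119) and without pre-osteoblast culture 1, 2 or 3 (0.0595, 0.0621 and 0.0709). With only the compared groups fitted the limma adjusted p was 0.10. Il6, a cytokine, averaged 5.37 in osteoblasts, below the lower quartile of gene means, and 7.47 in pre-osteoblasts (-2.11 ± 0.40 SE, limma adjusted p = 0.00526). Hmox1, a haem-degrading enzyme, rose by 1.06 ± 0.20 and Vegfa, an angiogenic factor, by 0.89 ± 0.16 in the same comparison.

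**Figure D4:**
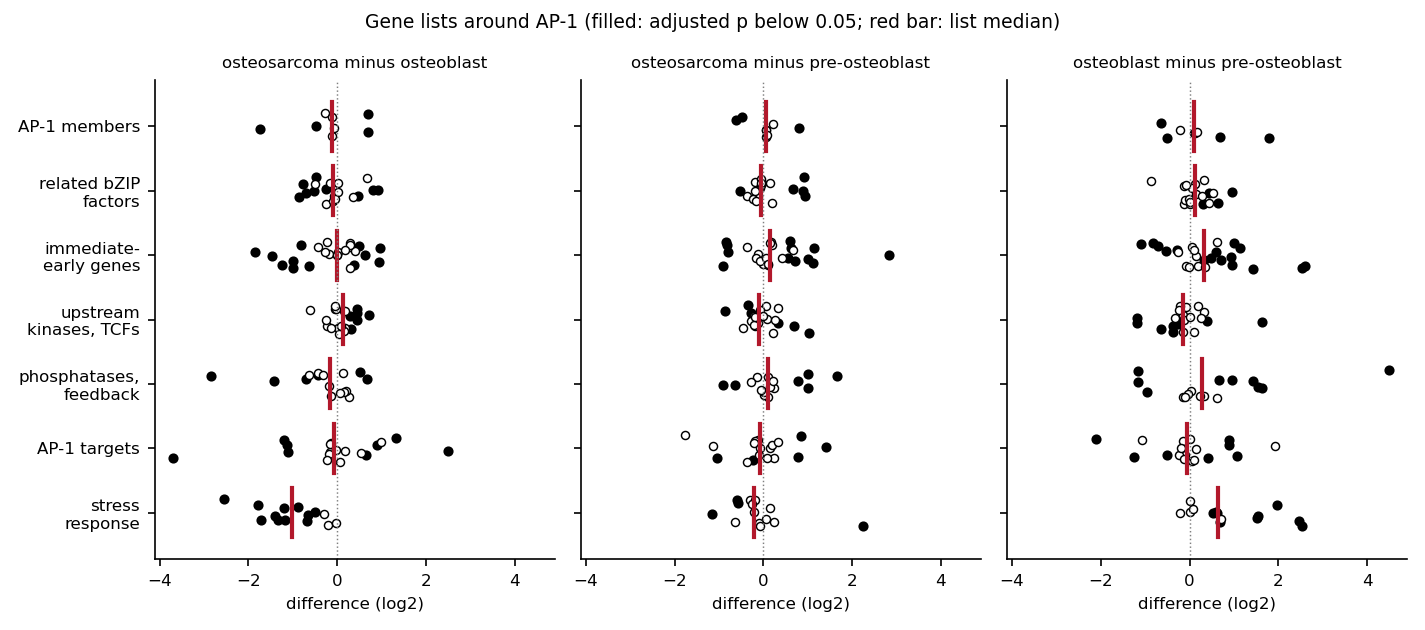
Log2 difference (horizontal axis) of every measured gene of the 8 members and of 6 related gene lists, one panel for each of the 3 comparisons; each circle is a gene, filled where the limma adjusted p was below 0.05, and red bars are list medians. The stress response list is shifted to a median of -1.02 in osteosarcoma lines against osteoblasts and of 0.65 in osteoblasts against pre-osteoblasts, while the AP-1 targets have medians of -0.07 and -0.05 with filled circles on both sides.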

How the data were processed

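The deposited table held log2 expression levels of 35556 probe sets on 9 arrays, made by the authors with RMA and mm9, per the submitters' processing notes; no source used here gives the RMA version or any filter. Of the probe sets, 21789 had 1 gene symbol, 1621 several and 12146 none. A gene was represented by its single-symbol probe set with the highest mean. limma 3.58.1 in R 4.3.3 fitted 3 group means to all 9 arrays (6 residual and 2.19 prior degrees of freedom), with Benjamini-Hochberg adjustment over 19938 genes and calls below 0.05. The code was tested on simulated data. Arrays give no depth; 3 arrays a group limit the precision. No pair of arrays had identical deposited values, to the last digit, at over 4.33% of probe sets.

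The members and lists were chosen with earlier results of these data known. From each list and comparison, at most the 2 called genes with the largest rise, the 2 with the largest fall and the largest uncalled difference were named. The fall of Egr1 in osteosarcoma lines against osteoblasts was given outside this rule. Alternatives changed the centring, normalization, filter, probe set rule, variance model, samples fitted and replicates. Same-numbered osteoblast and pre-osteoblast cultures were not treated as pairs. Promoter sequences are RefSeq's, GRCm38.p6.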

Additional observations from a re-analysis of the deposited data

How the results depend on the processing

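The calls on Jun in both comparisons of the osteosarcoma lines, on Atf3 and Fosl2 in both comparisons with osteoblasts, on Fos in osteoblasts against pre-osteoblasts and on Fosb in osteosarcoma lines against pre-osteoblasts held under every alternative that kept the gene; the filter at the median gene mean dropped Fos and Fosb. Of the alternative values of the members, 374 kept direction and side of the threshold, 26 lost the call, 4 gained one and 6 turned direction. The 6 were uncalled throughout, and each came from leaving out an array. With single arrays left out, Atf3 in osteosarcoma lines against pre-osteoblasts ranged from -0.042 to 0.231 (-0.042 without line 2, -0.028 without pre-osteoblast 2). Junb ranged from -0.179 to 0.015 in the lines against osteoblasts (0.015 without line 2) and from -0.062 to 0.132 against pre-osteoblasts (-0.062 without line 3, -0.013 without pre-osteoblast 1). Jund in the lines against pre-osteoblasts ranged from -0.041, without line 1, to 0.117. The call on Fos in the lines against osteoblasts was also lost with array weights (limma adjusted p = 0.0812), median centring (0.0729) and quantile normalization (0.0737), and that on Fosl1 in osteoblasts against pre-osteoblasts with median centring (0.0507), a variance trend (0.0509), only the compared groups (0.0505) and quantile normalization (0.0551); the cause was not tested. With the replicate number as a block (replicate block), 3 members were called in osteoblasts against pre-osteoblasts, against 4 without it; Fosl1 had a difference of -0.50 and limma adjusted p = 0.0998, and Chac1 passed (0.0487). Deviations of same-numbered cultures correlated at 0.152, 0.176 and 0.0278, and those of differently numbered cultures at -0.16 to 0.0766. These values do not settle whether the numbers pair the cultures. Counts of called members and of all genes called stayed within 1.5 times in every alternative. The signal over background was not measured.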
